A study of Equus caballus with 18 samples.

Results

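The genes described here belong to the killing apparatus of cytotoxic lymphocytes: the granzymes GZMB, GZMA, GZMK and GZMM, the pore-forming protein PRF1, the death ligand FASLG, the activating receptor KLRK1, the granule membrane protein NKG7, and the transcription factors EOMES and TBX21. Of these 10 genes, 9 were measured, among 16661 genes that the array names by a single symbol, and no probe set carried the symbol GZMM alone. Each gene was read from a probe set with exactly 1 symbol. Only GZMB had several such probe sets, 3 in number, and the one selected by its highest mean over all arrays was used. The genes were chosen with earlier results of these data known, so the count of genes that passed a test is given beside the share of all probe sets that passed it and is not independent evidence of a direction.

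Cytotoxic T cells and natural killer cells store perforin and granzymes in secretory granules. On contact with a target cell the granules are released, perforin opens the target's membrane, and the granzymes enter and cut proteins that start its death; FASLG triggers death from outside through the receptor FAS. T-bet (TBX21) and Eomes are the transcription factors best known for switching on these genes in mouse and human lymphocytes. In healthy joints the fluid holds few cells, mostly macrophages and lymphocytes, and granzymes and perforin are known from inflamed joint fluid of people with arthritis.

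The samples were synovial fluid from the right carpal joint of Thoroughbreds in exercise training, part of a study of 12 adult horses (6 geldings and 6 mares, 4 to 8 years old). The arrays analysed here came from 6 horses that were given 8 mg of isoflupredone acetate, a synthetic glucocorticoid, into that joint. The groups were baseline (before the injection, 6 arrays), 24 h after it (6 arrays) and day 7 after it (5 arrays). All 3 groups are the same animals in time order, with horses back in exercise before day 7, and joints given saline were not analysed here, so the drug, the joint punctures, exercise and time since baseline cannot be told apart. RNA came from 200 µl of whole fluid, so a lower value may mean fewer cells of a type or less of the RNA in each cell, and these cannot be told apart in a bulk sample.

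Values were the deposited log2 expression values of 30559 probe sets, which ran from 1.05 to 13.68 and had array medians of 3.64 to 4.04. The day 7 columns of horses 1 and 2 held identical values at 99.3% of probe sets, against 2.05% in the next closest pair of columns. They were averaged and counted as 1 array, written here as horse 1/2. The spread of values within an array grew with time, with a mean SD over probe sets of 1.37 at baseline, 1.56 at 24 h and 1.7 at day 7. A gene is called here where limma's test within horses gave a Benjamini-Hochberg adjusted p under 0.05 over all probe sets. By that test 0.471% of all probe sets were lower and 0.543% higher at 24 h than at baseline, and 15.4% were lower and 11.9% higher at day 7 than at baseline.

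Granzyme B, the granzyme that cuts after aspartate and activates caspases, was the one gene of the 9 called at both times after the injection, by a probe set that did not follow the other 2 probe sets of this gene from array to array. Whether that probe set measures granzyme B alone was not tested, and every GZMB call in the text rests on it. Its log2 values at baseline were 6.62, 7.08, 6.49, 6.60, 6.78 and 7.39 in horses 1 to 6. At 24 h they were 5.56, 5.60, 5.94, 5.63, 5.47 and 5.21 in the same order. At day 7 they were 6.00 in horse 1/2, 5.15 in horse 3, 4.25 in horse 4, 4.75 in horse 5 and 5.32 in horse 6. Every array after the injection lay below every baseline array. Every horse had a lower value at 24 h than at its own baseline, and all 5 pairs were lower at day 7. The mean log2 value went from 6.83 ± 0.34 (SD, n = 6) at baseline to 5.57 ± 0.24 (SD, n = 6) at 24 h and 5.09 ± 0.65 (SD, n = 5) at day 7.

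GZMB fell by 1.26 on the log2 scale at 24 h (95% interval -1.82 to -0.70), which is 2.39-fold lower, with limma's adjusted p of 0.0431. At day 7 it fell by 1.70 (95% interval -2.29 to -1.10), which is 3.24-fold lower, with an adjusted p of 0.00448 by limma. The call at 24 h was close to the threshold: with only the arrays of the 2 times in the fit limma's adjusted p was 0.146, and with the 24 h array of horse 2 left out it was 0.123. The call at day 7 held without any 1 horse. It ended with the SD of each array as a covariate, where the change was -0.59 with limma's adjusted p of 0.871. In that setting 0 of all probe sets were called at day 7.

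The other 2 probe sets of GZMB had smaller changes and were not called. The second by mean read 3.93, 6.42, 6.43, 7.03, 6.97 and 5.51 at baseline in horses 1 to 6, then 5.02 to 5.86 at 24 h and 5.09 to 5.68 at day 7. Its baseline arrays spread over the later ones, with horse 1 below all of them and horses 2 to 5 above. Its change was -0.70 ± 0.35 (SE) at 24 h and -0.76 ± 0.37 (SE) at day 7, with limma's adjusted p of 0.286 and 0.127. The third read 2.77 to 4.59 at baseline, 2.48 to 3.65 at 24 h and 2.62 to 3.17 at day 7. Its change was -0.77 ± 0.28 (SE) and -0.75 ± 0.29 (SE), with limma's adjusted p of 0.153 and 0.0706. All 3 probe sets had a change below 0 at both times.

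**Figure D1:**
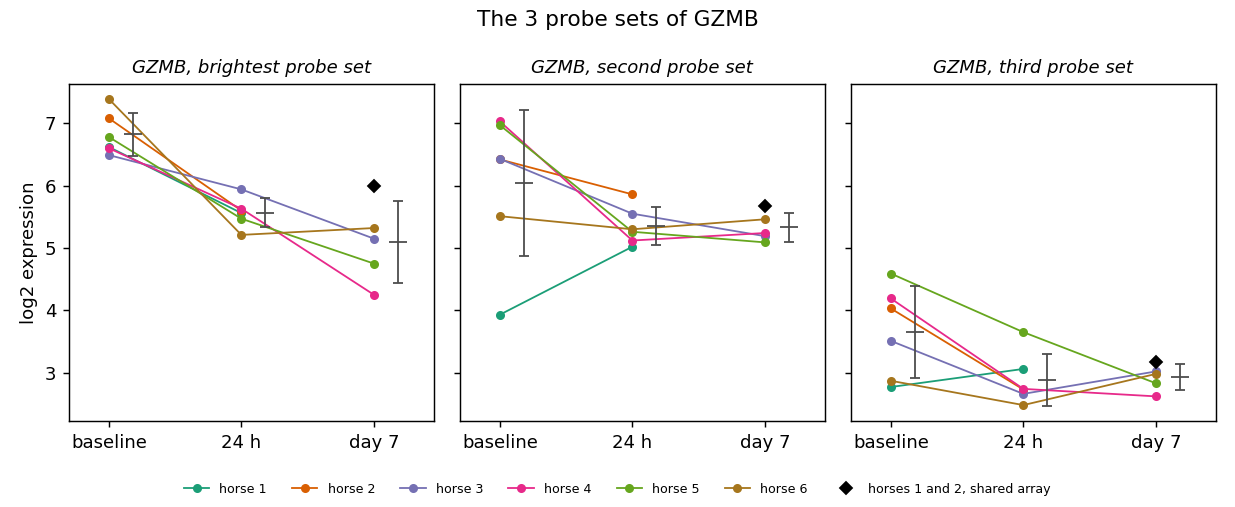
Deposited log2 values (vertical axis) of the 3 probe sets of GZMB in each horse at baseline, 24 h and day 7 (horizontal axis), with a line per horse. The brightest probe set shows no overlap between baseline and later arrays, while the baseline values of the second run from 3.93 to 7.03.

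The probe sets of GZMB also differed in which arrays were high. After the mean of each time was taken away, the brightest probe set had a Pearson correlation over the 17 arrays of 0.10 with the second and 0.07 with the third, and these other 2 had one of 0.69 with each other. With the other 8 genes the brightest probe set correlated at -0.24 to 0.45, the second at 0.17 to 0.68 and the third at 0.03 to 0.74. These values describe 17 arrays from 6 horses that share animals and array-wide differences in spread.

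Granzyme A, a granzyme that cuts after basic residues, was lower at day 7 in all 5 pairs without passing the threshold. Its log2 values ran from 3.89 to 4.90 at baseline, from 3.34 to 4.01 at 24 h and from 2.99 to 3.77 at day 7, so that all day 7 arrays lay below all baseline arrays. The change was -0.37 ± 0.25 (SE) at 24 h, with limma's adjusted p of 0.432. At day 7 it was -0.67 ± 0.26 (SE), with a 95% interval of -1.23 to -0.10 and limma's adjusted p of 0.0699. Leaving out the horse as a block gave an adjusted p of 0.0336 by limma for the same change. GZMA at day 7 was called in 4 of 35 alternative settings, and without horse 4 its change was -0.40.

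Granzyme K, known in people from a T cell subset with less perforin, was not called at any time. Its log2 values at baseline were 4.04, 5.38, 5.61, 6.81, 4.16 and 4.14 in horses 1 to 6, which is the widest spread of the 9 genes (SD 1.11). At day 7 they were 4.73, 5.37, 4.69, 4.93 and 5.02, inside the baseline range in all 5 arrays. The change was -0.47 ± 0.46 (SE) at 24 h and -0.05 ± 0.48 (SE) at day 7, with a 95% interval at day 7 of -1.09 to 0.98. That interval spans changes of about 1 log2 unit either way, and without horse 4 the day 7 change was 0.39.

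Perforin, the pore former, was called lower at day 7. Its log2 values at baseline were 6.52, 6.87, 7.04, 7.29, 6.62 and 6.57 in horses 1 to 6. At 24 h they were 6.37, 6.38, 5.97, 6.42, 6.87 and 6.07, and at day 7 5.55 in horse 1/2, then 6.00, 5.57, 5.84 and 6.06 in horses 3 to 6. All day 7 arrays lay below all baseline arrays, and at 24 h horse 5 was above its own baseline while the other 5 horses were below theirs. PRF1 fell by 1.03 at day 7 (95% interval -1.53 to -0.54), which is 2.04-fold lower, with limma's adjusted p of 0.0112. At 24 h the change was -0.47 ± 0.22 (SE), with an adjusted p of 0.249 by limma. The day 7 call held without any 1 horse (without horse 4, -0.88 with limma's adjusted p of 0.0475). It ended with array SD as a covariate, where the change was -1.08 with limma's adjusted p of 0.755. In that setting 0 of all probe sets were called at day 7.

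FASLG, the ligand that engages FAS on target cells, was also called lower at day 7. Its log2 values at baseline were 3.36, 4.81, 3.92, 4.68, 4.33 and 4.07 in horses 1 to 6. At 24 h they were 3.69, 4.21, 3.67, 3.67, 4.33 and 3.32, and at day 7 3.73 in horse 1/2, then 3.43, 2.90, 3.00 and 3.41. The baseline value of horse 1 lay within the day 7 range, and the other 5 baseline arrays lay above all day 7 arrays. FASLG fell by 0.88 at day 7 (95% interval -1.43 to -0.34), which is 1.84-fold lower, with limma's adjusted p of 0.0253 and a lower value in 5 of 5 pairs. The call was lost without horse 2, 3, 4 or 5 (without horse 4, -0.68 with limma's adjusted p of 0.102) and after quantile normalization (-0.70, with an adjusted p of 0.0677 by limma). With array SD as a covariate, where 0 of all probe sets were called at day 7, the change was -0.21, with limma's adjusted p of 0.971.

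**Figure D2:**
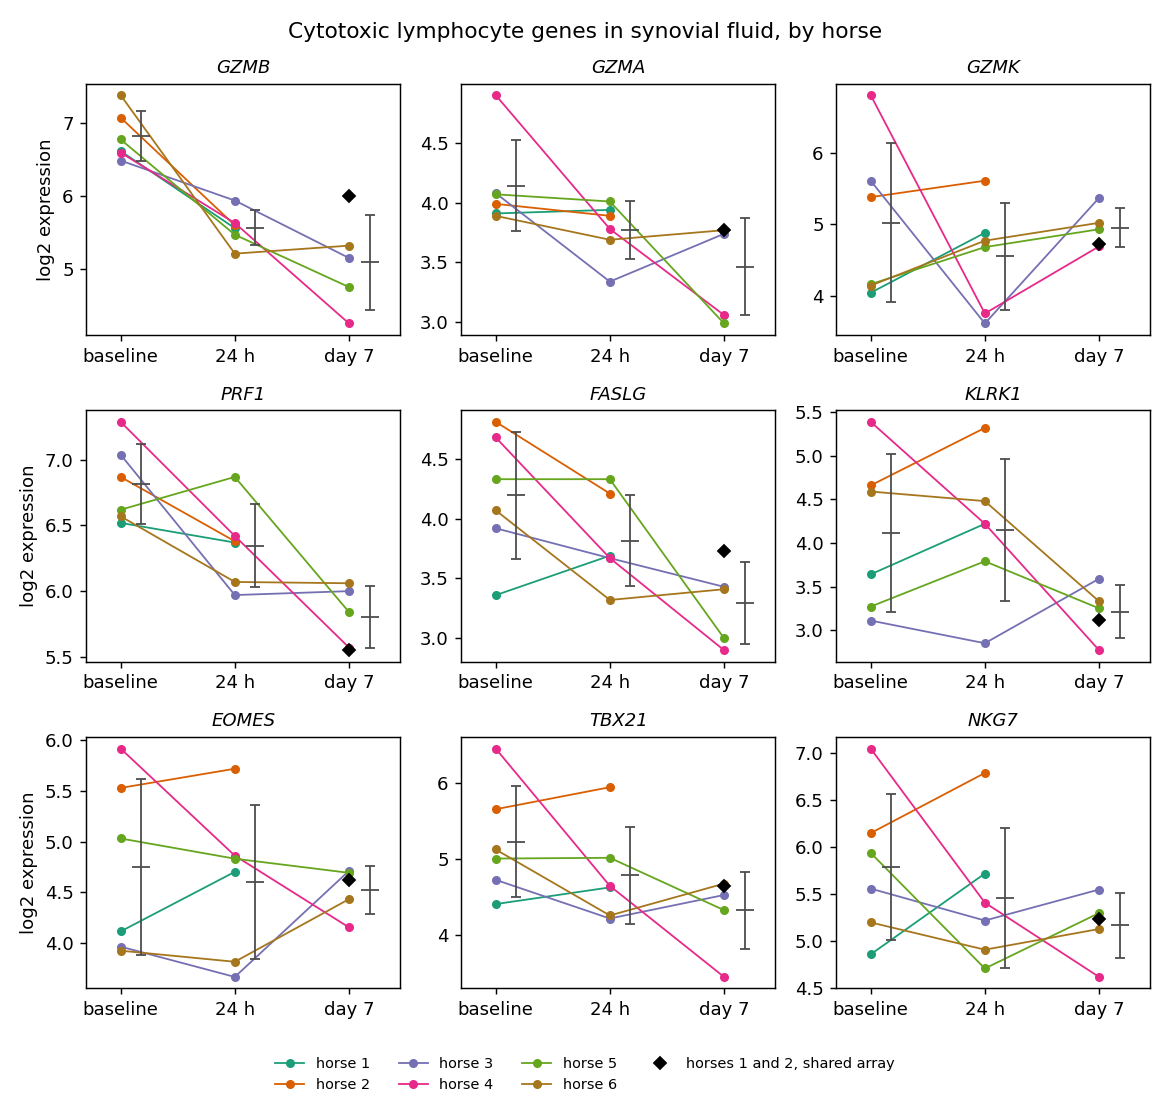
Deposited log2 values (vertical axis) of the 9 measured genes at baseline, 24 h and day 7 (horizontal axis), a line per horse, the mean ± SD of each time and a diamond for the day 7 array shared by horses 1 and 2. GZMB and PRF1 separate day 7 from baseline in all arrays, as GZMA does, while GZMK and EOMES overlap at all times.

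KLRK1 encodes NKG2D, a receptor that recognises stress ligands on target cells. Its log2 values ran from 3.11 to 5.39 at baseline, from 2.85 to 5.32 at 24 h and from 2.77 to 3.59 at day 7. The means at baseline (4.11 ± 0.91, SD, n = 6) and 24 h (4.15 ± 0.81, SD, n = 6) lay within the spread of either, and the change at 24 h was 0.04 ± 0.35 (SE). At day 7 the change was -0.85 ± 0.37 (SE), with limma's adjusted p of 0.0949 and a lower value in 4 of 5 pairs. KLRK1 was the only gene of the 9 whose mean was highest at 24 h. Without horse 4 its day 7 change was -0.45.

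NKG7, a granule membrane protein needed for efficient granule release in mouse and human lymphocytes, read 4.86 to 7.05 at baseline, 4.71 to 6.79 at 24 h and 4.62 to 5.55 at day 7. Its change was -0.33 ± 0.34 (SE) at 24 h and -0.58 ± 0.36 (SE) at day 7, with limma's adjusted p of 0.623 and 0.225. All 5 pairs were lower at day 7, and the day 7 arrays still overlapped the baseline arrays of horses 1 and 6.

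The transcription factors differed in size of change, without a test of the difference. TBX21 read 4.41 to 6.46 at baseline, 4.22 to 5.95 at 24 h and 3.45 to 4.68 at day 7. Its day 7 change was -0.87 ± 0.35 (SE), lower in 5 of 5 pairs, with limma's adjusted p of 0.0777, and it was -0.39 with an adjusted p of 0.302 by limma without horse 4. EOMES read 3.92 to 5.92 at baseline, 3.66 to 5.72 at 24 h and 4.15 to 4.71 at day 7. Its change was -0.15 ± 0.30 (SE) at 24 h and -0.17 ± 0.31 (SE) at day 7, with limma's adjusted p of 0.819 and 0.692. All 5 day 7 arrays of EOMES lay inside its baseline range.

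Of the 9 genes, 1 was called lower and 0 higher at 24 h (GZMB), where 0.471% of all probe sets were called lower. At day 7, 3 were called lower and 0 higher (GZMB, PRF1 and FASLG), where 15.4% of all probe sets were called lower. The median change of the 9 genes was -0.38 at 24 h, where the median over all 16661 genes was 0.01. At day 7 it was -0.85, beside -0.04 over all genes. The change was below 0 in 8 of 9 genes at 24 h and in 9 of 9 at day 7, against 48.7% and 52% of all genes. Without horse 4 it was below 0 in 6 of 9 at 24 h and 7 of 9 at day 7. The genes are not independent units, as the 8 other than GZMB correlated between arrays at a median of 0.64. Arrays did not overlap, with the later ones lower, for 1 of 9 genes at 24 h (0.877% of all probe sets) and for 3 of 9 at day 7 (8.11% of all probe sets), these being GZMB, GZMA and PRF1.

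**Figure D3:**
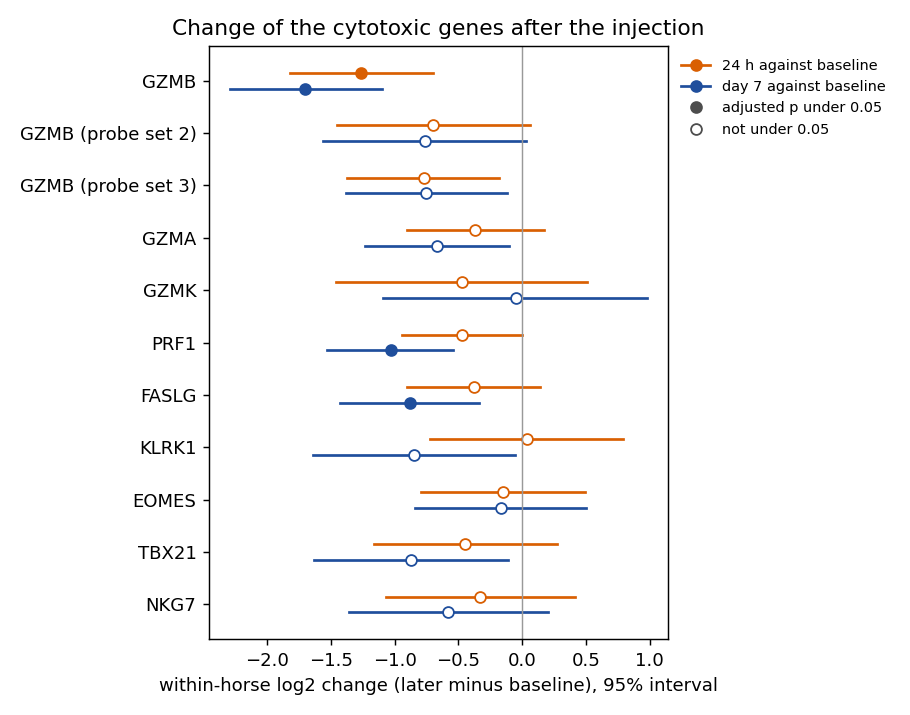
Log2 change against baseline (horizontal axis) of the 9 genes and the other GZMB probe sets at 24 h and day 7, with 95% intervals from limma. Filled points passed the adjusted threshold: GZMB at 24 h (-1.26), and GZMB (-1.70), PRF1 (-1.03) and FASLG (-0.88) at day 7.

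Dim probe sets tended to have changes below 0 and bright ones changes above 0 across the array, so each gene is set here beside probe sets of like brightness. In 4 equal classes by mean value, the median change at day 7 was -0.61 in the dimmest class, -0.30 in the second, -0.04 in the third and 0.51 in the brightest. GZMB, PRF1 and NKG7 were in the brightest class, where 6.71% of probe sets were called lower at day 7 and 0.157% at 24 h. FASLG, GZMA and KLRK1 were in the second class, where 12.3% were called lower at day 7. GZMK, EOMES and TBX21 were in the third class, where 8.02% were called lower at day 7.

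Between day 7 and 24 h no gene of the 9 passed, as 0% of all probe sets did by limma's adjusted p. At an unadjusted p under 0.05, 2 of the 9 genes differed, and so did 4032 of all probe sets (13.2%). These 2 were KLRK1, with a change of -0.89 ± 0.37 (SE, unadjusted p 0.0312, limma's adjusted p 0.342), and PRF1, with -0.56 ± 0.23 (SE, unadjusted p 0.0297, limma's adjusted p 0.338). GZMB changed by -0.44 ± 0.27 (SE) over the same interval, with limma's adjusted p of 0.479. No gene had day 7 arrays that all lay below the 24 h arrays, which held for 0.677% of all probe sets. The means fell in the order baseline, 24 h, day 7 for 7 genes, with GZMK and KLRK1 the exceptions, and neighbouring times in that order were told apart by the test only for GZMB between baseline and 24 h.

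Horse 4 had the largest differences between times. At baseline it had the highest value for 7 of the 9 genes, and at day 7 the lowest for 7. Its fall from baseline to day 7 was the largest of the 5 pairs for 9 of 9 genes, with a median of -2.12. The medians of the other pairs were -0.35 in horse 1/2, -0.24 in horse 3, -0.68 in horse 5 and -0.45 in horse 6. At 24 h its median was -1.12, against -0.51 to 0.33 in the other 5 horses. Without horse 4 the median of the 9 genes was -0.40 at day 7 and -0.17 at 24 h, with 7 and 6 of 9 genes below 0. GZMB and PRF1 were still called at day 7 without it, and GZMB at 24 h was not (-1.32, limma's adjusted p 0.0653).

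T cell markers moved with the cytotoxic genes from array to array. The mean log2 value of 19 measured T cell markers was highest at baseline in horse 4 (6.45) and at 24 h in horse 2 (6.41), the horses that were highest in 7 and 5 of the 9 genes at those times. It ranged from 4.84 to 6.45 at baseline, from 4.70 to 6.41 at 24 h and from 4.87 to 5.24 at day 7. After the time means were taken away, it correlated over the 17 arrays at 0.86 with EOMES, 0.80 with TBX21, 0.76 with GZMK, 0.71 with NKG7, 0.69 with FASLG, 0.64 with PRF1, 0.63 with KLRK1 and 0.57 with GZMA. With the brightest GZMB probe set the value was -0.17, and with the other 2 GZMB probe sets it was 0.59 each. Horse 4 was also highest at baseline for the means of macrophage (6.14), neutrophil (4.78) and B or plasma cell (5.64) markers. Horse 2 was also highest at 24 h for endothelial markers (4.02), and the remaining marker lists were highest in other horses. The related gene lists described below were all highest in horse 4 at baseline and in horse 2 at 24 h. Their means there were 6.12 and 6.63 for granule loading and release, and 5.34 and 5.59 for granzyme inhibitors and death substrates. For the death receptor pathway they were 5.25 and 5.37, and for natural killer genes 4.89 and 4.76. For cytotoxic differentiation they were 4.88 and 5.03. At baseline the T cell mean was lowest in horse 6, and horse 1 was lowest in 5 of the 9 genes. At 24 h horse 3 was lowest in both, for 6 of the 9 genes. Whether the match was particular to T cells was not tested.

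Of the 19 T cell markers, 0 were called in either direction at 24 h (median change -0.04). At day 7, when 15.4% of all probe sets were called lower, 5 of the 19 were called lower and 0 higher, with a median change of -0.59. The lower ones were the signalling genes ZAP70 (-1.39, limma's adjusted p 0.00579), LAT (-0.94), LCK (-0.64), TRAT1 (-0.94) and CD6 (-0.84). ZAP70, LAT and CD6 were in the brightest class, where 6.71% of probe sets were called lower at day 7. TRAT1 was in the second class, where 12.3% were. The receptor chains CD3D and CD3E were not called, at 0.45 ± 0.55 (SE) and -0.12 ± 0.50 (SE), nor was CD8A, a chain of the coreceptor of cytotoxic T cells, at -0.59 ± 0.33 (SE). The part of T cell number in the fall of PRF1 and FASLG was not tested.

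**Figure D4:**
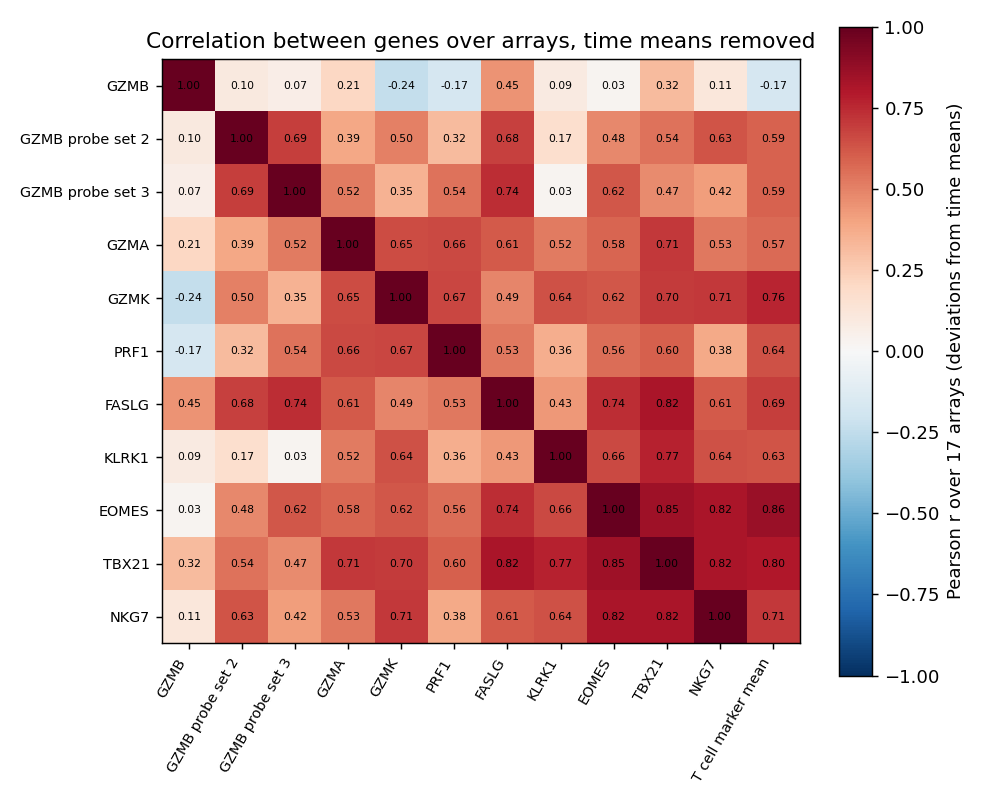
Pearson correlation between genes over 17 arrays with time means removed, for the 9 genes, the other GZMB probe sets and the mean of 19 T cell markers. The 8 genes other than GZMB correlate at 0.36 to 0.85 with each other, and the brightest GZMB probe set at -0.24 to 0.45 with them.

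The 8 genes other than GZMB rose and fell together between arrays, with correlations of 0.36 to 0.85 over 28 pairs (median 0.64), the highest between EOMES and TBX21. The genes outside the list whose deviations from the time means were most like those of the brightest GZMB probe set were SLIT2 (r 0.94), OR10C1B (0.91), OR5BH5 (0.89), ASPHD1 (0.89) and LRRC31 (0.88), over 17 arrays. SLIT2 encodes a guidance ligand and OR10C1B and OR5BH5 carry olfactory receptor names; none of the 5 was called in any comparison. For GZMK, the gene with the largest range over arrays (3.20), they were ATP8A1 (0.91), ING4 (0.85), BIRC3 (0.84), SNRPC (0.83) and CD3D (0.81), the last a chain of the T cell receptor complex. These genes were picked by their r over all measured genes, so the values carry no test.

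Several genes that load and release cytotoxic granules rose while GZMB and PRF1 fell. Of 17 measured, 1 was called higher and 0 lower at 24 h (median change 0.50), and 9 were called higher and 0 lower at day 7 (median 1.06), when 11.9% of all probe sets were called higher. Of these 9, 7 were in the brightest class, where 31.5% of probe sets were called higher at day 7 with a median change of 0.51. LAMP1, a membrane protein of lysosomes and cytotoxic granules, rose by 2.23 ± 0.40 (SE) at 24 h and 2.46 ± 0.42 (SE) at day 7, with limma's adjusted p of 0.0274 and 0.00519. At day 7 M6PR, a receptor that sorts granzymes to granules, rose by 2.57 ± 0.45 (SE), AP3B1, an adaptor subunit of lysosomal sorting, by 2.36 ± 0.50 (SE), and CTSC, the protease that activates granzymes, by 3.20 ± 0.75 (SE). STX11 and UNC13D, which act in granule fusion, were not called, at -0.44 ± 0.22 (SE) and 0.08 ± 0.23 (SE), and RAB27A, which docks granules, was at -0.30 ± 0.23 (SE).

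Lysosomal genes of this kind are also active in macrophages, and macrophage markers rose over the same times. Of 10 measured monocyte or macrophage markers, 1 was called higher at 24 h (CD163, 4.77 ± 0.37, SE) and 6 at day 7, with 0 lower and median changes of 1.09 and 1.90. At 24 h 0.543% of all probe sets were called higher, and at day 7 11.9%. Of the markers called at day 7, CD163, MSR1, CD68 and MRC1 were in the brightest class. In that class 2.02% of probe sets were called higher at 24 h and 31.5% at day 7, with a median change of 0.51 at day 7. The mean log2 value of the macrophage markers ran from 5.41 to 6.14 at baseline, from 5.63 to 8.53 at 24 h and from 6.83 to 8.60 at day 7. It did not overlap between baseline and day 7. The part of macrophage RNA in the rise of the granule genes, or in a lower share of lymphocyte RNA, was not tested.

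Granzyme inhibitors and death substrates were called higher for 5 of 11 at day 7 and lower for 0, with 0 called at 24 h and median changes of 0.29 and 0.86. SERPINB1, APEX1 and SET were also in the brightest class, where 31.5% of probe sets were called higher at day 7, beside 11.9% of all probe sets. At day 7 SERPINB1, an inhibitor of neutrophil serine proteases, rose by 2.24 ± 0.50 (SE, limma's adjusted p 0.0111). APEX1 and SET, granzyme A substrates of one complex, rose by 1.85 ± 0.52 (SE) and 1.71 ± 0.54 (SE), and XIAP, a caspase inhibitor, by 1.19 ± 0.39 (SE). SERPINB9, the direct inhibitor of granzyme B, was at 0.02 ± 0.39 (SE). In the death receptor pathway 3 of 11 were called higher and 1 lower at day 7, when 15.4% of all probe sets were called lower. There 0 were called at 24 h, and the medians at the 2 times were 0.35 and 0.54. Of those called higher, RIPK1 and DIABLO were in the brightest class and APAF1 in the second. RIPK1, a kinase of the receptor complex, rose by 1.44 ± 0.36 (SE), and TRADD, an adaptor, fell by 0.63 on the log2 scale. FAS, the receptor for FASLG, was at 0.09 ± 0.34 (SE), and CASP8, the caspase it activates, at -0.21 ± 0.21 (SE).

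Of 16 measured natural killer cell receptors, ligands and adaptors, 0 were called at 24 h. At day 7, when 11.9% of all probe sets were called higher and 15.4% lower, 1 of the 16 was called higher and 0 lower. The medians at the 2 times were -0.06 and -0.27. The called gene was TYROBP, an adaptor that macrophages also use, at 1.79 ± 0.52 (SE, limma's adjusted p 0.0255). HCST, the adaptor of NKG2D in human cells, was at -0.64 ± 0.34 (SE), KLRD1 at -0.62 ± 0.36 (SE), and NCR1, a receptor that marks natural killer cells in mammals, at -0.78 ± 0.57 (SE), with limma's adjusted p of 0.153, 0.203 and 0.295. At 24 h the smallest p were those of CD226 (0.63 ± 0.27, SE) and SH2D1A (-0.57 ± 0.27, SE).

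Among 27 genes of cytotoxic differentiation and cytokine input, 0 were called at 24 h. At day 7, 6 of the 27 were called lower and 1 higher, when 15.4% of all probe sets were called lower and 11.9% higher. The medians at the 2 times were -0.10 and -0.37. IL2, the T cell growth factor, fell by 0.87 at day 7 (limma's adjusted p 0.0159), and IL21 and its receptor IL21R fell by 0.88 and 0.67. IL2 and IL21 were in the dimmest class, where 34.5% of all probe sets were called lower at day 7 with a median change of -0.61. ZNF683, a transcription factor of tissue-resident and effector lymphocytes in humans and mice, fell by 0.98, and NFIL3, needed for natural killer cell development in mice, fell by 0.90. XCL1, a chemokine of activated cytotoxic cells, fell by 0.70, and ZEB2, a transcription factor of effector cells that macrophages also express, rose by 1.91. IFNG, the main cytokine of these cells, was at -0.43 ± 0.24 (SE) at day 7 with limma's adjusted p of 0.174, and CCL5 at -1.15 ± 0.45 (SE) with an adjusted p of 0.0715 by limma. PRDM1 at 24 h was at 0.84 ± 0.22 (SE), higher in 6 of 6 horses, with limma's adjusted p of 0.0714.

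**Figure D5:**
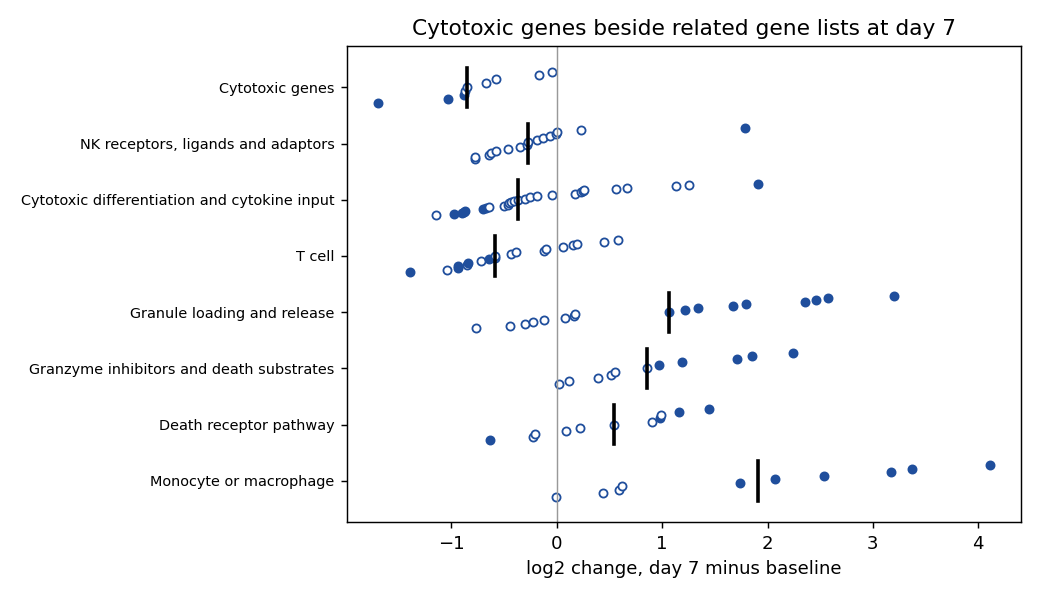
Log2 change at day 7 against baseline (horizontal axis) of each measured gene in the cytotoxic list, the related lists, and the T cell and macrophage marker lists. Filled points are called genes and a bar marks the median of each list. The medians are -0.85 for the cytotoxic genes, 1.06 for granule loading and 1.90 for macrophage markers.

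Markers of other cells that could hold granzyme B were read as well. In people, plasmacytoid dendritic cells and basophils or mast cells can express GZMB. Of 4 measured plasmacytoid markers, 2 were called lower at day 7, IL3RA (-1.39, limma's adjusted p 0.00755) and SPIB (-0.82, limma's adjusted p 0.035), and 0 higher, with 0 called at 24 h. The other 2 were above 0, TCF4 at 0.33 ± 0.27 (SE) and IRF8 at 0.48 ± 0.37 (SE), and the median was -0.24. Their mean log2 value ran from 5.13 to 5.89 at baseline, 4.74 to 5.42 at 24 h and 4.92 to 5.39 at day 7. Of 6 mast cell or basophil markers, 1 was called lower at day 7 (GATA2, -0.80) and 0 at 24 h, a share near the 15.4% of all probe sets called lower at day 7, with a median of -0.26. The mean of these ran from 3.48 to 3.95 at baseline, from 3.43 to 3.84 at 24 h and from 3.26 to 3.74 at day 7. The part of these cells in the fall of GZMB was not tested.

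The remaining lists are set beside the 15.4% of all probe sets that were called lower at day 7. Among them, 2 of 7 B or plasma cell markers were called lower at day 7 (CD79B and BLK), with a median of -0.73. Of 8 neutrophil markers, 1 was called lower at day 7 (CXCR2, -1.58), with a median of -0.44. At 24 h 0 were called, 6 of 8 were above 0 (median 0.31), and MMP8 was at 2.58 ± 0.67 (SE) with limma's adjusted p of 0.0718. The mean log2 value of the neutrophil markers ran from 3.77 to 6.30 at 24 h and was highest in horse 3, which had the lowest 24 h value for 6 of the 9 cytotoxic genes. The part of neutrophil RNA in those low values was not tested. No marker of synovial fibroblasts (9 measured), endothelium (6) or red cells (4) was called at 24 h or day 7.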

How the data were processed

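Total RNA of equine synovial fluid was hybridised to Affymetrix equine arrays. The deposited log2 values are per probe set, to 2 decimals; per the submitters' processing notes the tools were RMA, Transcriptome Analysis Console 3.0 and Affymetrix Expression Console, whose roles are not given. Gene symbols came from the platform annotation of the probe sets: 16789 probe sets had 1 symbol, 343 several and 13427 none. The number of arrays limits the precision.

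All 30559 probe sets were fitted over 17 arrays with time and horse as terms, using lmFit and eBayes of limma 3.58.1 (R 4.3.3). Tests were two-sided, and residual degrees of freedom numbered 9 and prior ones 4.71; the array shared by horses 1 and 2 was given to both in equal parts. The pairing comes from the horse names in the labels. With time means removed, the median correlation was -0.02 between a horse's own arrays (14 pairs) and 0.00 between horses (70 pairs). Every change is a within-horse estimate and can depart from the difference of means. P-values were adjusted by Benjamini-Hochberg within a comparison. Both comparisons with baseline share the baseline arrays.

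The members and lists were chosen with earlier results of these data known. Named genes were the members, from each related list the called genes of smallest p (at most 4, or 2 uncalled ones if there were none), and the 5 genes most like GZMB and GZMK over arrays; called cell type markers, and CD3D, CD3E, CD8A, CCL5, IFNG, FAS, CASP8, SERPINB9, HCST, KLRD1, NCR1, STX11, UNC13D, RAB27A, ZEB2, NFIL3, XCL1, LCK, TCF4, IRF8 and MMP8 were named from the lists after their values were seen. The fit was tested on simulated data. It called 34% of 2-fold changes at 24 h and 22% at day 7, and 86% and 85% of 4-fold changes. A gene not called may therefore still have changed, most often by less than 4-fold, and some simulated 4-fold changes were missed as well. The simulated data held far fewer changed probe sets than were called at day 7, so recovery in these data may differ. Alternatives were the block, the arrays fitted, normalization, filters, array weights, array SD as a covariate, the shared array, GZMB's other probe sets, and each horse or array left out. Saline joints and sequences were not used here. Plots used Python 3.11.15 and matplotlib 3.10.9.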

Additional observations from a re-analysis of the deposited data

Results flagged for a closer look

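GZMA at baseline was 4.90 in horse 4, and the next highest of the 6 horses was at 4.08, a gap of 0.812 of the group's whole range. TBX21 at day 7 was 3.45 in horse 4, and the next lowest of the 5 arrays was at 4.33, a gap of 0.715 of the range. Both values stood farther from the others than Dixon's limit for a group of that size. These were 2 of 27 groups tested, and chance gives about 1 in 20. Without horse 4 the day 7 change was -0.40 for GZMA and -0.39 for TBX21, and neither was called with or without it.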

How the results depend on the processing

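The number of cytotoxic genes called at 24 h (1) was 0 with only the arrays of the 2 times, with array SD as a covariate, with a trend and robust estimation, and with array weights, and 0 to 1 with a horse or array left out; GZMB kept its call in 12 of 37 settings. The number at day 7 (3) was 0 with array SD as a covariate and 5 with array weights, which added GZMA and TBX21. Without the replicate block (the horse), 1, 4 and 0 cytotoxic genes were called at 24 h, at day 7 and between day 7 and 24 h, and 437, 9227 and 0 probe sets; the block changed only the call of GZMA at day 7. At day 7 GZMB was called in 34 of 37 settings, PRF1 in 34 of 35 and FASLG in 21 of 35. All probe sets called at 24 h (310) became 608 with the horse as a random effect, 2 with only those times, 107 after quantile normalization, 164 after median centring, 1 with array SD, 157 without the dimmest 25% of probe sets and 132 with array weights. They became 488 with both day 7 columns kept, 494 and 168 with the shared array given to horse 1 or horse 2, and 5 to 1257 with a horse or array left out. At day 7 (8343) they became 2858 after quantile normalization, 0 with array SD, 5090 without the dimmest 25% of probe sets and 1761 to 10934 with a horse or array left out. Between day 7 and 24 h (0) they became 3446 with array weights, 12 with the shared array given to horse 1, 107 without it and 0 to 610 with a horse or array left out. The share of calls that were higher went from 53.5% to 65.4% (quantile) and 64.6% (centring) at 24 h, and from 43.7% to 56.4% and 60.2% at day 7. The median change of all probe sets at day 7 went from -0.24 to -0.06 and -0.09. With array SD as a covariate, FASLG (0.01) and KLRK1 (-0.32) at 24 h and GZMB between day 7 and 24 h (0.03) changed sign, and the third GZMB probe set gave 0.03 there too. GZMK at day 7 changed sign after centring (0.10) and with the shared array given to horse 1 or left out (0.07 each). EOMES between day 7 and 24 h did so with only those times (0.01), after quantile normalization (0.04) or centring (0.09), and with the shared array given to horse 1 (0.11) or left out (0.07). With a horse or array left out, signs changed for KLRK1 (-0.11 to 0.34), GZMK (-0.75 to 0.04) and EOMES (-0.31 to 0.10) at 24 h, GZMK (-0.28 to 0.45) and EOMES (-0.40 to 0.20) at day 7, and EOMES (-0.27 to 0.25) and NKG7 (-0.44 to 0.03) between day 7 and 24 h; none of these changes was called. The causes were not tested. Alternatives for the shared array and single arrays left out were known from earlier results. Detection above background was not given, so whether the dimmer probe sets measured their genes was not tested.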

Other observations

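The rank of each gene within its own array, as the median percentile among all probe sets, gave a view that does not depend on the scale of an array. For PRF1 it was 96.1 at baseline, 91.2 at 24 h and 85.5 at day 7. For GZMB it was 95.3, 84.2 and 77.2. For FASLG it was 57.3, 41.9 and 37.3, and for KLRK1 55.7, 57.7 and 35.4. EOMES, at 67.1, 71.8 and 67.4, and GZMK, at 70.5, 70.3 and 72.8, kept about the same rank at day 7 as at baseline.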
